A study of Homo sapiens with 36 samples.

Results

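Isolated CTCF peaks of control HEK293T cells were defined as control peaks on chromosomes 1 to 22 and X with no other control peak within 200 kb on either side, edge to edge. There were 780 of them among 36270 control peaks (2.15%), and the other 35490 peaks are called the other control peaks. HEK293T is an established line grown from human embryonic kidney, and its CTCF binding was profiled by ChIP-seq, the sequencing of DNA that comes down with an antibody. Cells were transfected with a small interfering RNA against CHD3 (siCHD3), CHD4 (siCHD4), CHD5 (siCHD5), MBD2 (siMBD2) or MBD3 (siMBD3), or with a control one (siNC). There were 3 CTCF immunoprecipitates and 3 inputs per condition, 36 samples in 12 groups. How far each target was depleted was not analysed here. The values are 6 peak lists, 1 per condition, each made by the authors from 3 pooled replicates. The replicate spread is therefore unknown throughout, and conditions are set side by side without a test. Intervals are exact Clopper-Pearson 95% intervals and cover counting error only.

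CTCF is a zinc-finger protein that binds DNA at insulators and blocks the movement of cohesin, so that pairs of its sites anchor chromatin loops. Its sites are dense where genes are dense and sparse in gene-poor stretches, where a lone site can be the nearest boundary over a long distance. The targeted proteins belong to the NuRD complex, which moves nucleosomes through its CHD helicases and carries histone deacetylases. MBD2, which binds methylated CpG sites, and MBD3 are alternative subunits of that complex.

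The distance to the nearest control peak had a median of 263 kb among the isolated peaks. It was over 400 kb for 109 of them and under 250 kb for 333. The most remote one lay at chr21:14425305-14425492 (hg19, 1-based, as all positions here), with the nearest control peak 1067 kb away. It had a fold enrichment of 4.80 in siNC and was called in none of the 5 knockdown lists. The next was chr2:52022713-52022915, 1049 kb from its neighbour. It had a fold of 6.31 in siNC and was called in siCHD5 (fold 8.12) and siMBD2 (fold 4.27). Fold enrichment is the authors' value at the summit over local background, and it is used to rank peaks within 1 list, not to compare lists. Just inside the rule lay chr13:69898315-69898580, at 200.045 kb from its neighbour, with a fold of 3.77 and peaks in 4 knockdown lists. Just outside it lay chr2:50371467-50371787, at 199.93 kb, with a fold of 5.57 and peaks in 4 knockdown lists.

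Isolated peaks made up a larger part of the control peaks on some chromosomes than on others. They were 5.66% of control peaks on chromosome 21, 4.68% on chromosome 18, 4.60% on chromosome 4 and 4.43% on chromosome 13, against 0.629% on chromosome 17, 0.674% on chromosome 20 and 0.814% on chromosome 22. Chromosome 4 held the most (77), followed by chromosome 2 (74) and chromosome 5 (59). Of the 780, 360 had no isolated peak as their neighbour, 330 had 1 and 90 had isolated peaks on both sides. The longest run was 7 isolated peaks in a row on chromosome 11, from 37470825 to 39746245.

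In the siNC list itself, isolated peaks had a slightly higher fold, with both a lower pileup and a lower background. This is a description, since the same list chose them. Their median fold was 5.50 against 5.22 for the other control peaks, and their median width was 281 bp against 304 bp. Their median summit pileup, the number of fragments over the summit implied by the authors' fold and p, was 41 against 60. Their median local background was 6.40 against 10.3 fragments per bp. Of the isolated peaks, 38.3% lay in the lowest of 5 equal classes of local background, and 27.2% in the highest of 5 equal classes of fold. A −log10 q of at least 10 was reached by 72.3% of isolated peaks and 78.7% of the others.

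Isolated peaks were missing from knockdown lists more often than the other control peaks in siCHD3, siCHD4, siMBD2 and siMBD3, and by a smaller margin in siCHD5. Missing means that no peak of that list overlapped the control peak by 1 bp. In siCHD3, 391 of the 780 were missing (50.1%, interval 46.6 to 53.7), against 35.1% of the other control peaks (interval 34.6 to 35.6) and 35.4% of all control peaks. In siCHD4, 443 were missing (56.8%, interval 53.2 to 60.3), against 41.1% of the others (interval 40.6 to 41.7) and 41.5% of all. The isolated share was higher by 15.0 percentage points in siCHD3 and 15.6 in siCHD4. In the lists that follow it was higher by 16.6 points in siMBD3, 10.3 in siMBD2 and 3.30 in siCHD5.

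In siMBD3, 427 isolated peaks were missing (54.7%, interval 51.2 to 58.3), against 38.2% of the others (interval 37.7 to 38.7) and 38.5% of all. In siMBD2, 351 were missing (45.0%, interval 41.5 to 48.6), against 34.7% of the others (interval 34.2 to 35.2) and 34.9% of all. The siCHD5 list kept most of them. It missed 193 (24.7%, interval 21.8 to 27.9), against 21.4% of the others (interval 21.0 to 21.9) and 21.5% of all. These intervals overlap, which does not show that the shares are equal. All 5 comparisons use the same siNC list.

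**Figure D1:**
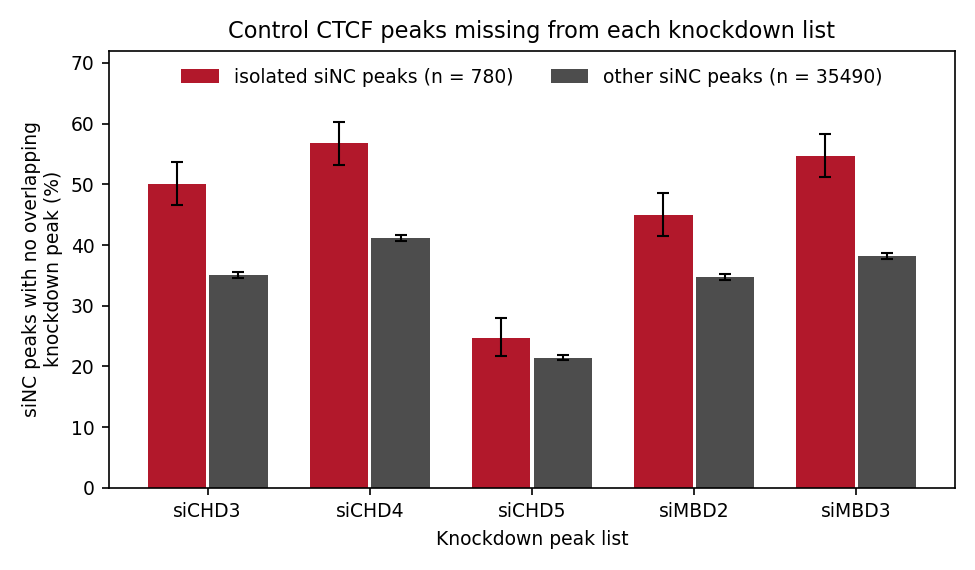
Share of control peaks with no overlapping peak in each knockdown list (%), for the 780 isolated and the 35490 other siNC peaks; error bars are exact 95% binomial intervals for counting error. The isolated bars lie above the others in every list, by the smallest margin in siCHD5, where the intervals of 24.7% and 21.4% overlap.

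How far this holds depends on which control peaks the isolated ones are set against. Against other control peaks in the same of 10 equal classes of siNC fold, the isolated share was higher by 19.4 points in siMBD3, 18.2 in siCHD4, 17.1 in siCHD3, 13.3 in siMBD2 and 5.89 in siCHD5. Against other control peaks in the same of 5 classes of summit pileup and the same of 5 classes of local background, the difference was 6.84 points in siCHD4, 6.25 in siCHD3 and 4.33 in siMBD3. It turned negative in siMBD2 (-2.48 points) and siCHD5 (-7.81 points). Pileup and background moved with isolation, and they also moved with loss. In siCHD3, missing isolated peaks had a median control pileup of 30 and a median background of 4.98, and kept ones 58 and 7.82. In siCHD5 missing ones had 23 and 3.91, and kept ones 51 and 7.82. Isolation cannot be told apart from low pileup beyond what these classes show.

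By pileup, the gap in siCHD3 and siCHD4 was widest in the lowest class. Among control peaks in the lowest of 5 pileup classes, siCHD3 missed 76.3% of 257 isolated peaks (interval 70.6 to 81.3) and 59.0% of the others, and siCHD4 missed 80.5% (interval 75.2 to 85.2) and 66.0%. The siMBD3 list missed 84.8% of these isolated peaks (interval 79.8 to 89.0) and 78.3% of the others. In the same class, siMBD2 missed 80.5% of isolated peaks and 80.7% of the others, and siCHD5 missed fewer isolated peaks, 60.3% (interval 54.0 to 66.3) against 71.3%. In the middle class, siCHD3 missed 35.5% of isolated and of other peaks alike, and siMBD3 missed 34.9% and 34.2%. In that class isolated peaks were missing less often in siCHD4 (39.6% against 44.3%), siMBD2 (18.9% against 26.8%) and siCHD5 (1.78% against 6.41%). Of the 47 isolated peaks in the highest class, 3 were missing in siCHD3, 2 each in siCHD4, siMBD2 and siMBD3, and 0 in siCHD5. The shares of other control peaks missing in that class were 7.10% in siCHD3, 9.63% in siCHD4, 2.67% in siMBD2, 5.22% in siMBD3 and 0.361% in siCHD5, each inside the interval of the isolated share.

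**Figure D2:**
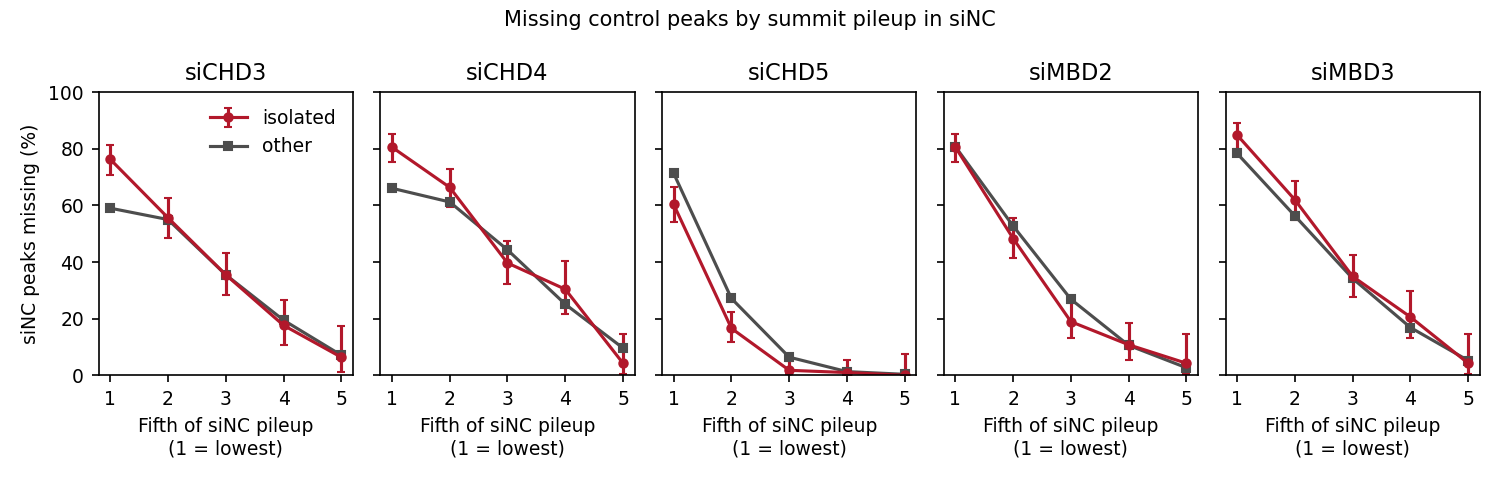
Share of control peaks missing (%) against the class of siNC summit pileup (1 is the lowest of 5 equal classes), with 1 panel per knockdown list; circles are isolated peaks with exact 95% binomial intervals and squares are the other control peaks. The isolated line lies above the others in class 1 in siCHD3 (76.3% against 59.0%) and siCHD4 (80.5% against 66.0%), and below it in siCHD5 (60.3% against 71.3%).

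The lists also differ in depth, read from the lowest background in each list. The siNC background was 6.66 times that of siCHD3, 2.79 times that of siCHD4, 1.52 times that of siCHD5, 4.62 times that of siMBD2 and 7.92 times that of siMBD3. With control pileups scaled down to a knockdown list's depth, the share expected to be missing was 39.5% for isolated and 32.9% for other peaks in siCHD3, and 48.9% and 41.4% in siMBD3. The expected shares were 29.5% and 24.1% in siMBD2, 14.2% and 12.1% in siCHD4, and 2.69% and 3.06% in siCHD5. These expected shares hold no variation between libraries. For isolated peaks the observed share lies above the expected one by 5.88 points in siMBD3, 10.6 in siCHD3 and 15.5 in siMBD2. It lies above by 22.1 points in siCHD5 and 42.6 in siCHD4. Such an excess was not particular to isolated peaks. The other control peaks also lay above their expected share in siCHD3 (35.1% observed), siMBD2 (34.7%), siCHD5 (21.4%) and siCHD4 (41.1%). In siMBD3 they lay below it (38.2%).

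In siCHD3, siCHD4 and siMBD3 the isolated peaks stood at the end of a gradient of spacing. In siCHD3 the share missing was 29.3% where the nearest control peak lay under 5 kb away, 33.7% at 5 to 20 kb, 36.4% at 20 to 50 kb, 41.8% at 50 to 100 kb and 43.6% at 100 to 200 kb. Within the isolated peaks it was 50.2% at 200 to 400 kb and 49.5% over 400 kb, where there are 109 peaks (interval 39.8 to 59.3). The siCHD4 list went through 35.3% in the closest class and 48.9% at 100 to 200 kb to 57.2% at 200 to 400 kb, and siMBD3 through 35.7% and 46.6% to 55.0%. In siCHD5 the closest class had 25.5% missing, about as many as the isolated peaks at 200 to 400 kb (24.6%), with lower shares between them. In siMBD2 the closest class had 35.8% missing, the next 32.5% and 34.4%, and the isolated peaks at 200 to 400 kb 44.7%. Median control pileup along these classes was 60 under 5 kb, 49 at 100 to 200 kb, 42 at 200 to 400 kb and 37 over 400 kb. Its part in the gradient was not tested beyond the classes above.

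**Figure D3:**
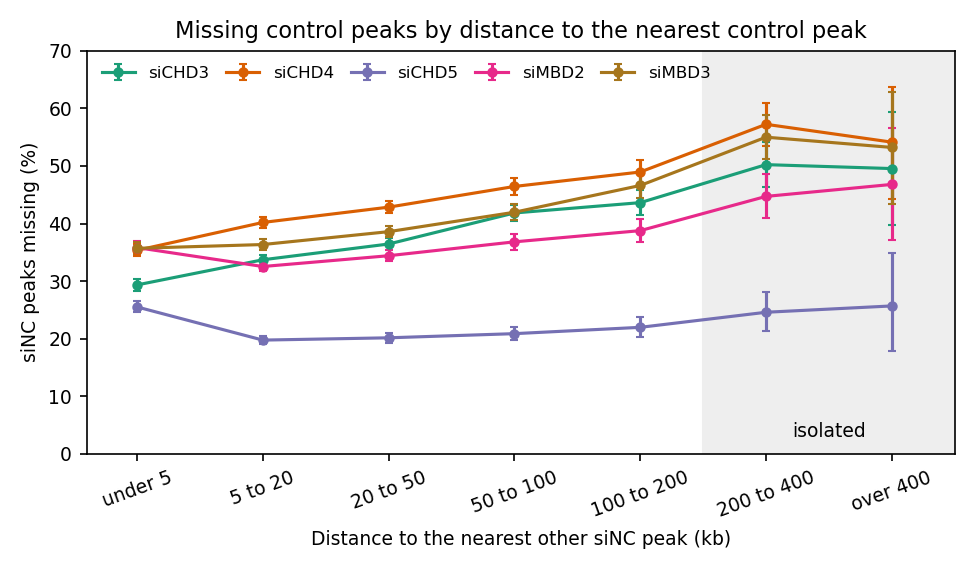
Share of control peaks missing from each knockdown list (%) against the distance to the nearest other siNC peak (kb); error bars are exact 95% binomial intervals and the shaded classes are the isolated peaks. In siCHD3 the share is 29.3% under 5 kb and 50.2% at 200 to 400 kb; in siCHD5 it is 25.5% and 24.6%.

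The direction was shared by most chromosomes in each list. The isolated share missing was above that of the other control peaks of the same chromosome on 21 of 23 chromosomes in siCHD4, siMBD2 and siMBD3, on 19 in siCHD3 and on 15 in siCHD5. On chromosome 9, siMBD3 missed 76.0% of 25 isolated peaks and 37.3% of the others. On chromosome 8, siCHD3 missed 69.8% of 53 isolated peaks and 38.0% of the others. On chromosome 18 the siCHD3 shares were 43.3% of 30 isolated peaks and 46.8% of the others, one of its exceptions. On chromosomes 4, 13 and 18 together, which are gene-poor, siCHD4 missed 63.9% of 144 isolated peaks and 46.4% of the others, and on the remaining 20 chromosomes 55.2% and 40.7%. In siCHD3 the shares were 54.2% and 42.5% on the gene-poor chromosomes, and 49.2% and 34.4% on the remaining ones. In siMBD3 they were 56.3% and 43.8%, and 54.4% and 37.6%. In siMBD2 they were 48.6% and 38.2%, and 44.2% and 34.4%, and in siCHD5 23.6% and 21.2%, and 25% and 21.5%. The gap on the gene-poor chromosomes was wider than elsewhere in siCHD4 and siMBD2 and narrower in siCHD3, siCHD5 and siMBD3, and whether it differs was not tested.

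Isolated peaks of high control fold were among the missing as well, though few of the highest pileup class were, as given above. The highest of 10 equal classes of control fold, from 7.91 upwards, held 120 isolated peaks. Of these, siCHD3 and siCHD4 each missed 33 (27.5%, interval 19.7 to 36.4), against 15.9% and 17.6% of the other control peaks of that class. The siMBD3 list missed 31 (25.8% against 16.9%), siMBD2 missed 25 (20.8% against 12.9%) and siCHD5 missed 2 (1.67% against 4.79%).

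The isolated peak of highest control fold, chr16:52689283-52689962 (fold 17.5), was called in all 5 knockdown lists, with folds of 119 in siCHD3, 45.4 in siCHD4, 32.1 in siMBD3, 12.8 in siMBD2 and 11.6 in siCHD5. The folds of 119 and 45.4 were the highest of any kept isolated peak in the siCHD3 and siCHD4 lists. The next, chr16:13547801-13548219 (fold 14.8), had no siCHD4 peak and was called in the other 4 lists, with folds from 5.78 in siMBD3 to 9.07 in siCHD5. A peak 615 kb from its nearest neighbour, chr18:49814764-49815105 (fold 14.4), was called in every list, with folds from 4.89 in siCHD3 to 12.5 in siCHD5. Its neighbour on that side, chr18:50430295-50430566 (fold 12.1, pileup 47), is itself isolated and was missing in siCHD3 and siMBD3. It was called in siCHD5 (fold 12.2), siMBD2 (fold 7.32) and siCHD4 (fold 4.26).

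The other isolated peaks of high control fold named here were each missing from 1 to 3 of the 5 lists. Their control pileups lay on both sides of 60, the median of the other control peaks. Among isolated peaks called in only 1 knockdown list, the highest control fold was 8.78. A peak at chr2:5505984-5506398 (fold 13.7, pileup 71) was missing in siCHD3 and siMBD3 and present in siCHD4, siCHD5 and siMBD2. A peak at chr11:80948207-80948510 (fold 13.1, pileup 66) was missing in siCHD3 and siMBD2, and chr21:24164328-24164621 (fold 11.9, pileup 46) in siCHD4, siMBD2 and siMBD3. A peak at chr2:125561599-125562015 (fold 12.2, pileup 89), 712 kb from its nearest neighbour, was missing in siMBD2 only. The isolated peak of highest control fold missing in siCHD5 was chr19:22551434-22551788 (fold 10.4, pileup 40). That region was called in siCHD3 with a fold of 47.8, in siCHD4 with 20.4, in siMBD3 with 9.46 and in siMBD2 with 8.06.

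Counted over the lists, 151 isolated peaks were called in all 5 knockdown lists (19.4%, against 32.9% of the other control peaks) and 103 in none (13.2% against 7.83%). These counts share the siNC list, and all 5 knockdown lists are shallower than it. Isolated peaks present in all 5 had a median control fold of 7.12 and a median pileup of 78. Those present in none had a median fold of 4.39 and a median pileup of 21. Among peaks present in none, the highest fold was 7.25, at chr5:29697978-29698251, which had no peak of any knockdown within 1 kb. It was followed by chr3:187755008-187755257 (fold 6.81) and by chr14:33467641-33467960 and chr13:107570457-107570711 (fold 6.56 each).

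**Figure D4:**
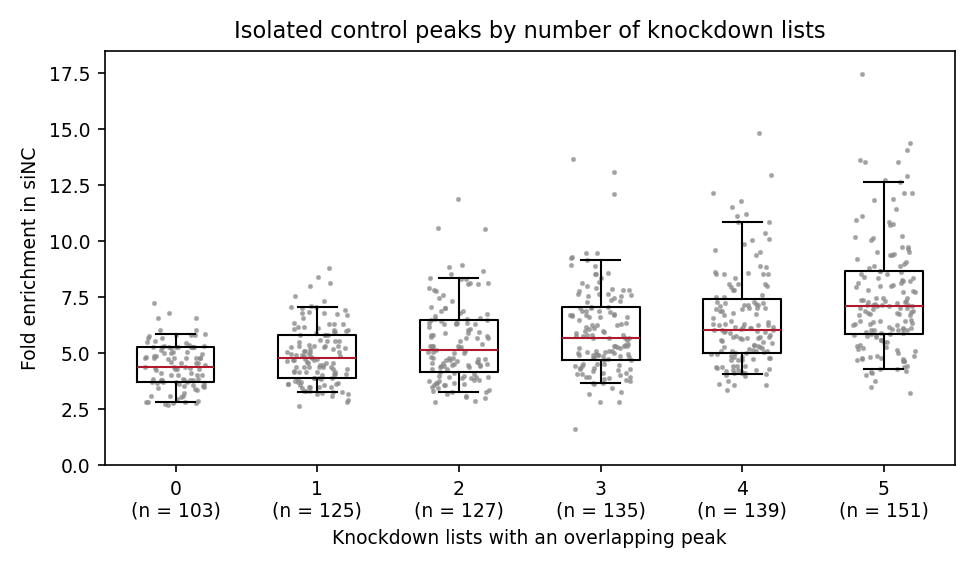
Fold enrichment in siNC (authors' value at the summit) of the 780 isolated peaks against the number of knockdown lists with an overlapping peak; points are peaks, boxes show the quartiles, red lines the medians and whiskers the 5th and 95th percentiles. The median is 4.39 for the 103 peaks present in no knockdown list and 7.12 for the 151 present in all 5.

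Isolated peaks that were kept had knockdown summits close to the control ones, which the overlap that defines them in part requires. The 2 summits lay a median of 9 bp (siCHD5) to 13 bp (siCHD3) apart. For the other kept control peaks this was 7 bp (siCHD5) to 12 bp (siCHD3). Among isolated peaks the share within 100 bp was lowest in siCHD3 at 97.7% and highest in siCHD5 at 99.8%. By fold, the kept isolated peaks had a median percentile of 67.3 within the siCHD4 list, against 54.1 for the other kept control peaks. It was 54.0 against 61.1 within siCHD3 and 48.9 against 55.8 within siMBD3. A knockdown peak lay within 1 kb of a missing isolated peak in 3 cases in siCHD3, 2 in siMBD3 and 0 in siCHD4, siCHD5 and siMBD2.

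Added knockdown peaks reached into the empty flanks, but less often than around other control peaks. Every knockdown peak within 200 kb of an isolated peak that overlaps no control peak was counted, and these are called gap-filling peaks. In siCHD3, 410 gap-filling peaks lay beside 285 of the 780 isolated peaks (36.5%, interval 33.2 to 40.0), against 75.7% of other control peaks with an added peak within 200 kb and 74.9% of all control peaks. The list had 11199 added peaks, 32.6% of its peaks. In siMBD3, 177 lay beside 152 isolated peaks (19.5%, interval 16.8 to 22.4), against 45.9% of the others and 45.3% of all, from 3476 added peaks (13.4% of the list).

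In siCHD5, 159 gap-filling peaks lay beside 139 isolated peaks (17.8%, interval 15.2 to 20.7), against 39.4% of the others and 39.0% of all, from 2960 added peaks (9.41% of the list). In siCHD4, 137 lay beside 128 isolated peaks (16.4%, interval 13.9 to 19.2), against 48.9% of the others and 48.2% of all, from 4258 added peaks (16.8% of the list). In siMBD2, 127 lay beside 125 isolated peaks (16.0%, interval 13.5 to 18.8), against 34.0% of the others and 33.6% of all, from 2426 added peaks (9.30% of the list). Lists were then shortened by p to 25358 peaks, the length of the siCHD4 list, which left 468 isolated peaks. A gap-filling peak lay beside 10.7% of these in siCHD3 (34319 peaks before), 7.05% in siCHD5 (31451 before) and 13.2% in siMBD2 (26087 before). The share was 16.5% in siCHD4, which was not shortened, and 18.6% in siMBD3 (25848 peaks before), which lost few peaks. For siCHD4 and siMBD3 this setting therefore says little about the effect of shortening the knockdown list. The share missing was then 25% in siMBD2 and 15.4% in siCHD5. Both flanks were filled for 39 isolated peaks in siCHD3, 14 in siMBD3, 7 in siCHD5, 5 in siMBD2 and 4 in siCHD4.

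The flanks of isolated peaks cover 294 Mb, 9.96% of the span between the first and last peaks of the chromosomes. They held 3.22% of added peaks in siCHD4, 3.66% in siCHD3, 5.09% in siMBD3, 5.23% in siMBD2 and 5.37% in siCHD5. Per Mb this was 1.40 in siCHD3, against 4.06 in the rest of the span, and 0.466 in siCHD4, against 1.55. It was 0.541 in siCHD5 (1.05 in the rest), 0.432 in siMBD2 (0.866 in the rest) and 0.602 in siMBD3 (1.24 in the rest). Next to the peak, the density was lower beside isolated peaks in every list. Within 20 kb of an isolated peak, added peaks numbered 1.73 per Mb in siCHD3 and 0.449 in siCHD4, against 6.33 and 2.60 within 20 kb of other control peaks. The same densities were 0.770 against 1.53 in siCHD5, 0.385 against 1.22 in siMBD2 and 0.738 against 1.85 in siMBD3. The ratio of isolated to other was lowest under 20 kb in siCHD3, siCHD4, siCHD5 and siMBD2, whereas in siMBD3 it was lower at 20 to 50 kb (0.299) than under 20 kb (0.398). Beyond 200 kb from any control peak, the density was 0.899 per Mb where the nearest control peak was isolated and 0.841 elsewhere in siCHD3, 0.245 and 0.235 in siCHD4, and 0.385 and 0.303 in siMBD3. All these densities count every base of the span. Stretches where no peak can be called, such as assembly gaps, were not taken out. Their part in the densities near and far from control peaks was not tested.

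**Figure D5:**
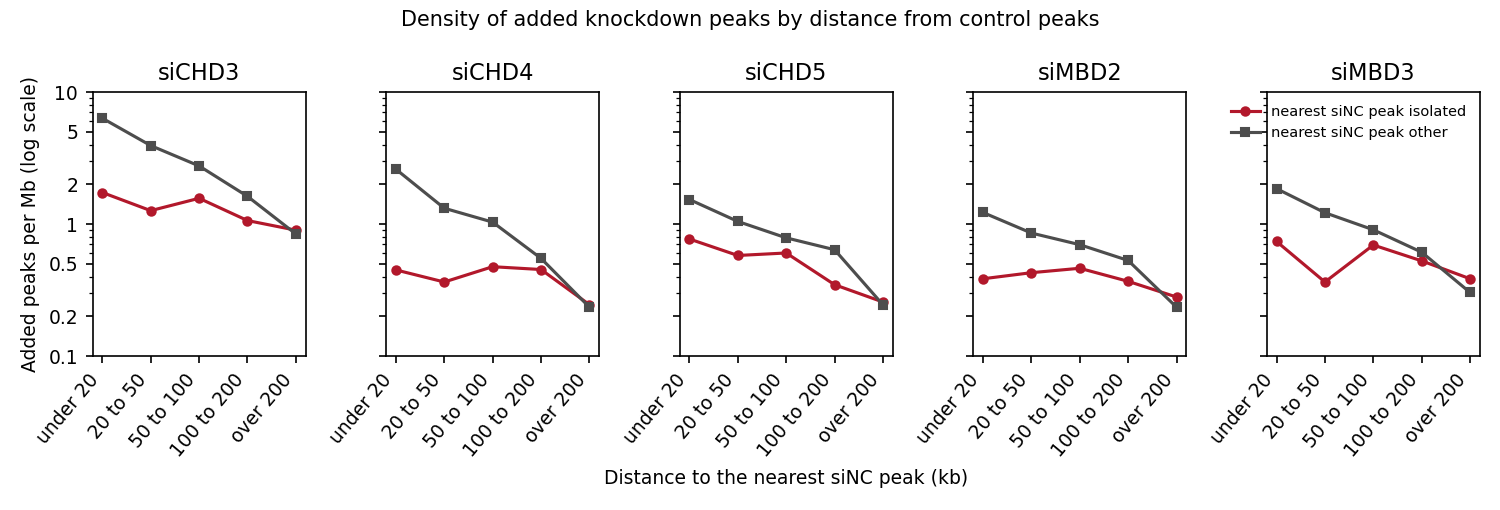
Added knockdown peaks per Mb (log scale) against the distance to the nearest siNC peak (kb), with 1 panel per knockdown list; circles are stretches whose nearest siNC peak is isolated and squares the other stretches. Under 20 kb the circles lie below the squares in all 5 panels (1.73 against 6.33 in siCHD3), and over 200 kb they lie close together (0.899 against 0.841). Stretches where no peak can be called are counted in the Mb.

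Low folds were common to gap-filling and other added peaks. The median fold of gap-filling peaks was 5.16 in siCHD5 (4.74 for the other added peaks), 4.57 in siMBD2 (4.69), 4.37 in siMBD3 (4.45), 4.37 in siCHD4 (4.37) and 4.36 in siCHD3 (4.85). These folds stood over low median backgrounds: 0.379 fragments per bp in siMBD3, 0.462 in siCHD3, 0.722 in siMBD2, 1.10 in siCHD4 and 2.49 in siCHD5. They therefore rest on few fragments and are not like equal folds in siNC. The median −log10 q was 2.81 in siMBD3, 3.03 in siCHD4, 3.04 in siCHD3, 3.28 in siMBD2 and 7.66 in siCHD5, in lists that start at 1.30 to 1.31. A −log10 q of at least 10 was reached by 30 of 410 in siCHD3 (7.32%, against 11.4% of the other added peaks) and 4 of 137 in siCHD4 (2.92% against 6.60%). It was reached by 50 of 159 in siCHD5 (31.4% against 30.3%), 10 of 127 in siMBD2 (7.87% against 6.87%) and 5 of 177 in siMBD3 (2.82% against 4.64%). Their median distance from the isolated peak was 81.4 kb in siCHD5, 88.9 kb in siCHD3, 94.7 kb in siMBD3, 95.7 kb in siMBD2 and 101 kb in siCHD4. Gap-filling peaks lay beside missing and kept isolated peaks at similar shares in siCHD3, siCHD4 and siCHD5. In siCHD3, 36.3% of missing and 36.8% of kept isolated peaks had a gap-filling peak, and in siCHD4 16.0% and 16.9%. The shares were 17.6% and 17.9% in siCHD5, and 14.0% (interval 10.5 to 18.0) and 17.7% (interval 14.2 to 21.7) in siMBD2. In siMBD3 the shares were 22.2% of missing (interval 18.4 to 26.5) and 16.1% of kept ones (interval 12.5 to 20.4). These intervals overlap, which does not show that the shares are equal, and the difference was not tested.

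The leading gap-filling peaks were taken by fold within each list. At chr7:109599339-109600115, siCHD3 had a fold of 19.4 at 115 kb from the isolated peak chr7:109484442-109484757, which was missing in that list. That region was also called in siCHD4 and siMBD3. At chrX:91931530-91931738, siCHD3 had a fold of 14.9, and siCHD4 had 14.6 at chrX:91931546-91931735. Both lie 97.3 kb from chrX:92029070-92029265 (control fold 4.39), missing in both lists. The next siCHD4 peak, chr15:43030089-43030414, had a fold of 8.80. The siCHD5 list was led by chr15:54255204-54255444 (fold 10.2), siMBD2 by chr2:109744450-109744738 (fold 10.6) and siMBD3 by chrX:22684659-22684928 (fold 9.05).

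Most gap-filling regions belonged to 1 list, as did most added regions in general. Merged over the 5 lists they gave 826 regions, of which 692 (83.8%) were called in 1 knockdown list, 101 in 2, 23 in 3, 7 in 4 and 3 in all 5. All added peaks of the 5 lists, merged likewise, gave 18703 regions, of which 77.7% were called in 1 list and 46 in all 5. The siCHD3 list alone gave 323 of the 692. The regions in all 5 were chr2:109744417-109744754, chr15:28908905-28909207 and chr20:38880006-38880346. On chromosome 2 the folds were 10.6 in siMBD2, 8.93 in siMBD3, 6.02 in siCHD5, 5.98 in siCHD3 and 5.78 in siCHD4. It lies 133 kb from the isolated peak chr2:109877285-109877624, which was kept in 2 of the 5 lists. The isolated peak beside the region on chromosome 20, chr20:38788679-38789114, was kept in all 5.

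Over the 5 lists together, 467 isolated peaks (59.9%) had a gap-filling peak in at least 1 list and 313 had none. Of those 313, 58 were called in all 5 knockdown lists and 36 in none. Counting loss and filling together, the isolated peaks still present and still isolated by the same rule were 482 in siCHD5 (61.8%), 353 in siMBD2 (45.3%), 296 in siMBD3 (37.9%), 280 in siCHD4 (35.9%) and 246 in siCHD3 (31.5%).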

How the data were processed

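CTCF ChIP-seq peaks of HEK293T cells were taken from 6 deposited lists, 1 per condition, each named by the authors as 3 replicates together, treatment against control. The build is hg19, and the tools named are MACS2 2.1.2, Bowtie2 2.3.4, deepTools 3.5.0, bedtools 2.25.0, FastQC 0.11.7 and SAMtools 1.9, all per the submitters' processing notes. Settings, read filters and the threshold for peaks are not given in the sources used here. Each list holds the authors' linear fold ratio at the summit, the deposited −log10 of p and of q, a deposited display score (not used) and the summit offset. The smallest −log10 q in the deposited lists was 1.30 to 1.31.

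Lines with identical chromosome, start and end were 1 peak, and its highest-fold summit was kept. Summit pileup and background were solved from fold and p (100% of peaks per list, p matched within 0.01%), with 1 added to both pileup and background in the fold, and p read as an upper Poisson tail. The lowest background of a list stood for its depth, since read totals were not used here. Overlap and gap filling recovered planted losses and planted peaks in a simulated list that copied siNC peaks at unchanged positions. Shifted or weaker peaks were not simulated. The solution recovered simulated pileups, and isolation matched a direct recount of the siNC peaks of 1 chromosome. Python 3.11.15, numpy 2.4.6, pandas 2.3.3, scipy 1.17.1 and matplotlib 3.10.9 were used.

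The members, classes and rules were chosen with earlier results of these data known. Regions were named by rank: highest control fold, largest distance, highest fold among missing, and highest fold or recurrence among gap-filling peaks. Genome sequence and gene annotation of hg19 were not used here. Alternatives tried were other isolation distances, a stricter q, equal list lengths, other definitions of presence, weighting by the chance of a call and other comparison classes.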

Additional observations from a re-analysis of the deposited data

How the results depend on the processing

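The lists pool replicates, differ in depth and give no variation between libraries, and how far depth sets the shares missing was not tested beyond the expected shares in the report. No paired analysis was possible because each list pools 3 replicates and no value per replicate was used. For the same reason no replicate could be left out. Of 60 alternative values of the difference in share missing between isolated and other control peaks, 56 kept its sign. Most of the 60 compared peaks of like fold. The rest used classes of pileup and background, or the chromosome alone. All use the same lists and are not independent. The exceptions were siCHD5 and siMBD2 in classes of pileup and background, at -7.81 and -2.48 points with 5 classes each, and -6.59 and -1.35 with 10 classes each, a setting chosen after the data were seen. With 10 classes the difference was 6.40 in siCHD3, 7.26 in siCHD4 and 5.29 in siMBD3, and with 5 classes 6.25, 6.84 and 4.33. The cause was not tested.

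The number of isolated peaks was 2960 at 100 kb and 109 at 400 kb. At 100 kb the share missing was 45.3% in siCHD3, 51.0% in siCHD4, 40.4% in siMBD2 and 48.8% in siMBD3, and the difference was 12.7, 12.8, 8.73 and 13.7 points. A gap-filling peak within 100 kb then lay beside 29.3% in siCHD3, 13.7% in siCHD5, 10.8% in siMBD2 and 13.2% in siMBD3. Within 400 kb it lay beside 55.0% in siCHD3, 21.1% in siCHD4, 28.4% in siMBD2 and 28.4% in siMBD3.

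With knockdown and control lists both restricted to a −log10 q of 10 or more, the share missing was 77.8% in siCHD3, 73.2% in siCHD4, 65.6% in siMBD2 and 80.9% in siMBD3, the difference was 22.05 points in siCHD3 and 18.0 in siMBD2, and gap filling was 3.72% (siCHD3), 0.532% (siCHD4), 7.09% (siCHD5), 1.24% (siMBD2) and 0.709% (siMBD3). By construction this setting also drops weak knockdown partners of control peaks. Here and with equal list lengths, isolation was still judged on the full siNC list. Gap-filling peaks still had to overlap no peak of that full list.

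Lists were also shortened to the 25358 peaks of smallest p, the length of the siCHD4 list, which left 468 isolated peaks. The siCHD4 list itself was thus not shortened. The share missing was 43.2% (siCHD3), 40.6% (siCHD4), 15.4% (siCHD5), 25% (siMBD2) and 37.6% (siMBD3). The difference was then 14.9 points in siMBD3, 12.98 in siCHD4, 7.11 in siMBD2 and 2.06 in siCHD5, and gap filling 10.7% in siCHD3, 7.05% in siCHD5 and 13.2% in siMBD2. Weighted by the chance of a call, the share missing was 39.8% in siCHD3, 52.8% in siCHD4, 34.3% in siMBD2 and 40.5% in siMBD3. Against the same chromosome only, a setting chosen after the data were seen, the difference was 13.4 points in siCHD3, 14.6 in siCHD4, 9.61 in siMBD2 and 15.2 in siMBD3. In all, 70 of 129 alternative values stayed within the counting interval of the main value or, for the number of isolated peaks, within 1.5 times of it.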

Other observations

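Applied to each knockdown list on its own, the same 200 kb rule gave more isolated peaks than in siNC (780): 1126 in siCHD4, 1122 in siMBD3, 1011 in siMBD2, 986 in siCHD3 and 866 in siCHD5. In siCHD4, 663 of its isolated peaks (58.9%) overlapped a control peak that was not isolated in siNC, so that a neighbour within 200 kb was called in siNC and none was called in siCHD4. The same held for 614 in siMBD3 (54.7%), 520 in siMBD2 (51.4%), 420 in siCHD3 (42.6%) and 283 in siCHD5 (32.7%). The matching share over all peaks of each list is not given here. Isolated peaks with no control partner at all numbered 320 in siCHD3, 32.5% of its isolated peaks against 32.6% of all its peaks. In siCHD4 they numbered 183 (16.3% against 16.8%) and in siMBD3 212 (18.9% against 13.4%). They numbered 138 in siMBD2 (13.6% against 9.30%) and 101 in siCHD5 (11.7% against 9.41%). As in siNC, isolated peaks lay over a lower background in each list, with medians of 0.837 against 1.15 fragments per bp in siCHD3, 2.96 against 4.03 in siCHD4 and 0.986 against 1.48 in siMBD3. List length and depth differ between the lists, and their part in these counts was not tested.

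The run of 7 isolated peaks on chromosome 11 gives a view of 1 sparse stretch. Its strongest peak, chr11:38812970-38813320 (fold 7.46, pileup 78), was called in all 5 knockdown lists. Its weakest, chr11:37470825-37471020 (fold 3.79, pileup 23), was called in none. Of the 7, siCHD5 kept 5, siMBD2 kept 4, and siCHD3, siCHD4 and siMBD3 kept 3 each. Beside the 7, gap-filling peaks were counted 2 times in siCHD3, 1 time each in siCHD5, siMBD2 and siMBD3, and 0 times in siCHD4. This stretch was chosen after its values were seen.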
